A study of Mus musculus with 12 samples.

Results

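The coding genes of the 4 Hox clusters were followed in sensory neuron-enriched fractions of mouse spinal and cranial ganglia. They were the 39 genes whose symbol is Hoxa, Hoxb, Hoxc or Hoxd with a paralogue number, out of 22609 genes listed in the count tables. Antisense and opposite-strand transcripts were not included. RNA came from naive mice, labelled as strain C57BL and 3 to 4 month old, in 4 groups of 3 libraries, given by sex and ganglion (DRG or TG). The study's methods name the substrain C57BL/6J and give a younger age than the labels. No group carried an allele or received an agent. According to the study's methods the females were in estrus and the dorsal root ganglia (DRG) were lumbar. The trigeminal ganglia (TG) are the sensory ganglia of the face. Both were dissociated enzymatically and spun through Percoll to sort cells by their density, and how many animals went into a library is not stated. The study's own question concerned sex differences within each ganglion. The design also allows the ganglia to be set against each other.

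Hox genes encode homeodomain transcription factors that lie side by side in 4 clusters, copies of 1 ancestral cluster. Genes at the same place in different clusters are paralogues and share a number. Low numbers are switched on first and reach furthest toward the head, and high numbers are restricted to the trunk and tail. The neural crest that forms spinal ganglia arises along the Hox-expressing trunk, whereas much of the trigeminal ganglion arises in front of the territory in which most Hox genes are active. Paralogues numbered 10 are known for patterning the lumbar level and those numbered 11 the sacral level. Hox genes are also active in connective tissue of the trunk.

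In mm9 coordinates the Hoxa cluster spans chromosome 6 from 52105366 to 52210874 with 11 coding genes, and the Hoxb cluster chromosome 11 from 96055630 to 96229570 with 10. The Hoxc cluster spans chromosome 15 from 102751534 to 102867274 with 9 genes, and the Hoxd cluster chromosome 2 from 74506367 to 74603200 with 9. By that annotation 18 of the 39 genes share exon bases with another gene, 12 of them on the same strand. Hoxd4 shares 67.4% of its exon bases with Hoxd3, so reads there may have been counted for neither. Hoxb7 shares 26.2% and Hoxb8 40.4%, with each other. Where the partner lies on the opposite strand, as for Hoxb2 and Hoxb3 with Hoxb3os, the strand setting of the counting decides, and it was not stated.

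The promoters of 4 genes of the Hoxd cluster are shown because they differ in TG. Hoxd1 and Hoxd8 had reads in all 6 TG libraries, Hoxd9 in 4 of them and Hoxd10 in none, while all of them had reads in all 6 DRG libraries. Each window runs from 250 bases before to 50 bases after the start, on the plus strand of GRCm38.p6, as given by RefSeq. The windows are chr2:74762730-74763029 for Hoxd1, chr2:74704365-74704664 for Hoxd8, chr2:74697513-74697812 for Hoxd9 and chr2:74691641-74691940 for Hoxd10. Capitals mark matches on either strand to 5 motifs: the TATA box TATAAA, the CCAAT box CCAAT, the composite Hox and Pbx site TGATTNAT, the nuclear receptor half-site AGGTCA and the caudal and posterior Hox core TTTATTG.
Hoxd1: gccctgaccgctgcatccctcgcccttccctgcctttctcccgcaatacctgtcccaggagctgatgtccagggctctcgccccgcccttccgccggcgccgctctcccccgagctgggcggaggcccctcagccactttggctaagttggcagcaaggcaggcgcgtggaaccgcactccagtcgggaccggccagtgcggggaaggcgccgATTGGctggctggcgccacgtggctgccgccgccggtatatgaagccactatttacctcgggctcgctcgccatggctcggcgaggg
Hoxd8: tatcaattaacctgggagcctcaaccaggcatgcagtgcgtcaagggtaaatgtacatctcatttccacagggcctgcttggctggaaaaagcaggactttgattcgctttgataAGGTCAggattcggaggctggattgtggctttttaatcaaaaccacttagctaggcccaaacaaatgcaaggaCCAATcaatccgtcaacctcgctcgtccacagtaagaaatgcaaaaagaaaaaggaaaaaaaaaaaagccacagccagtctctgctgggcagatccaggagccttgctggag
Hoxd9: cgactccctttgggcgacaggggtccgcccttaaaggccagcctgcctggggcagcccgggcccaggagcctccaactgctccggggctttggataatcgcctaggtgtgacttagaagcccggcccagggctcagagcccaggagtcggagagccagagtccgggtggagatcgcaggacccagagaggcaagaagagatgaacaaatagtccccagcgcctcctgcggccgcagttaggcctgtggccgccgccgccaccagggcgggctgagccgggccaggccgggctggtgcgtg
Hoxd10: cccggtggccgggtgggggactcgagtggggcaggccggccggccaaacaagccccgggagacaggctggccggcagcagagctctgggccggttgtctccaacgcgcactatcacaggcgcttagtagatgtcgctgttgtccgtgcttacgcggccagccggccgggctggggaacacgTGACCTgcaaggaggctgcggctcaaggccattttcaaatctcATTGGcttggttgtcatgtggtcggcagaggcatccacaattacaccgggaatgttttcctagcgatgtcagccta

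The capitals in these windows are CCAAT or its reverse complement in Hoxd1, Hoxd8 and Hoxd10, and AGGTCA or its reverse complement in Hoxd8 and Hoxd10. The Hoxd9 window held none of the 5 motifs. The letters of CCAAT occurred in 37.4% of all 32851 promoter windows of the table and in 62.5% of the 24 windows of Hox genes, which stand for 22 of the 39 genes. AGGTCA occurred in 16.3% and 29.2%, TATAAA in 13.6% and 16.7%, TGATTNAT in 3.22% and 8.33%, and TTTATTG in 4.6% and 8.33%. The motif letters were searched without regard to overlap between motifs. The Hoxd1 window held 29 CpG dinucleotides, Hoxd10 22, Hoxd9 20 and Hoxd8 6, against a median of 7 over all windows and 14.5 over the Hox windows. None of these features separated Hoxd1 and Hoxd8, with reads in every TG library, from Hoxd10, with none.

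Reads in genes ranged from 7511765 to 15396090 per library, and 3 counts, the floor used for genes with no read, came to 0.207 to 0.357 CPM (the count of a gene relative to the reads in genes of its library, set to a common total and scaled by TMM). Female DRG 1 was the shallowest library. On log2(CPM + 1) across 13919 genes its mean correlation with the other female DRG libraries was 0.877, against 0.890 and 0.906 for those, and female TG 3 had 0.907 against 0.936 and 0.945 for the other female TG libraries. In males these values ran from 0.935 to 0.967. Female DRG 1 had no read for 22 of the 39 Hox genes, against 8 to 11 in the other DRG libraries, although its summed Hox level of 163.3 CPM lay inside their range. Sensory neuron markers summed to 4376 to 8289 CPM in DRG and 4412 to 6926 CPM in TG, and satellite glia markers to 2658 to 5919 and 4030 to 7025 CPM. Glial as well as neuronal markers were thus read in each library, and in such bulk samples fewer cells of a type and less RNA per cell cannot be told apart. Reads carried no molecular identifiers, so intervals and floors cover counting error only. Of the 204 values of the 34 Hox genes with a read, 6 DRG libraries each, 38 were 0 and 149 were 10 reads or more, with 5 between 1 and 4 reads.

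Hox transcripts made up a broad series in DRG and almost a single cluster in TG. The 39 genes summed to 131.9, 162.2 and 176 CPM in the lowest, median and highest DRG library. In TG the same values were 12.6, 18.8 and 27.2 CPM. The ganglia did not overlap. At least 1 DRG read was counted for 34 of the 39 genes, with 13 genes read in all 6 DRG libraries and 12 in 5 of them. TG reads were counted for 11 genes, and 5 of these, Hoxd1, Hoxd3, Hoxd4, Hoxd8 and Hoxd9, had more than 3. Hoxa13, Hoxb13, Hoxc12, Hoxd12 and Hoxd13, genes of the tail end of the clusters, had no read in any of the 12 libraries. By counting error alone this allows a mean level of up to 0.0458 CPM in DRG and 0.0416 CPM in TG. Spread between libraries is not covered by that bound.

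**Figure D1:**
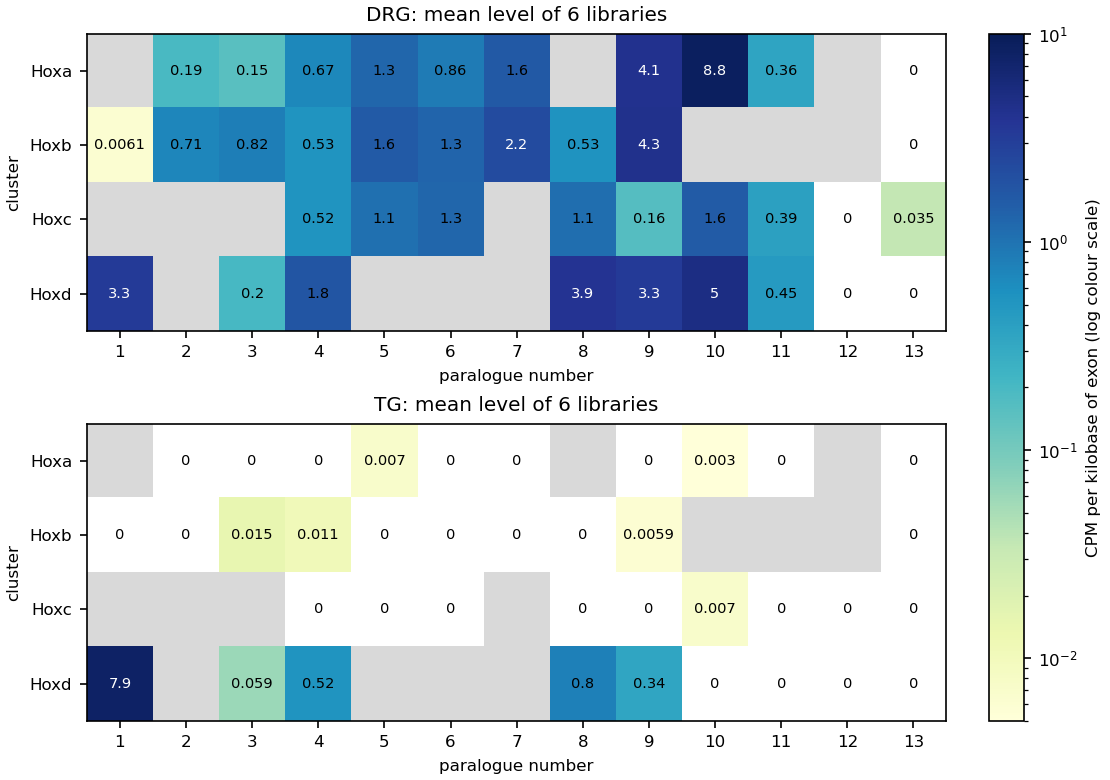
Mean level of Hox genes over 6 libraries in DRG (top) and TG (bottom), in CPM per kilobase of exon on a log colour scale, by cluster (rows) and paralogue number (columns). White cells are genes with no read, and grey cells are positions with no gene or not shown. In the TG panel the Hoxd row reaches 7.9 at Hoxd1, and coloured cells outside it are at most 0.015 (Hoxb3).

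Of 1424 Hox reads in TG, 1414 fell in the Hoxd cluster and 10 outside it. The 10 were 3 reads each of Hoxb3 and Hoxb4 and 1 each of Hoxa5, Hoxa10, Hoxb9 and Hoxc10. The other 24 of the 30 genes outside Hoxd had no TG read. Per TG library the Hoxd share ran from 97.6% (95% Wilson interval 94.5% to 99.0%) in female TG 1 to 100% (97.4% to 100%) in male TG 3. Hoxd1 alone held 75.3% of the TG Hox reads, compared with 3.93% of the 10254 Hox reads in DRG. Over single libraries the Hoxd1 share ranged between 69.1% and 86.2% among the TG libraries and between 2.34% and 5.86% among the DRG libraries, so that the ganglia lay far apart on this measure.

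In DRG the reads were spread over the clusters. Hoxa held 34 ± 5.55% of the summed level per kilobase of exon, Hoxd 32.9 ± 4.04%, Hoxb 22 ± 3.26% and Hoxc 11.1 ± 2.51% (SD, n = 6). Hoxc was the lowest of the 4 in each DRG library. With coding length in place of exon length, Hoxb held 27.25% and Hoxd 27.01%, so the order of these clusters depends on the length used. By paralogue number the level was highest at numbers 9 and 10 and low beyond them. Genes numbered 1 to 3 held 10.7 ± 3.66%, those numbered 4 to 8 held 37.1 ± 7.73% and those numbered 9 to 13 held 52.2 ± 7.7% (SD, n = 6). The summed level was 5.55 ± 3.85 CPM per kilobase at number 8, 11.9 ± 2.43 at number 9 and 15.4 ± 4.95 at number 10. It was 1.2 ± 0.68 at number 11 and 0 at number 12, and only Hoxc13 had reads at number 13, 6 in all. A lower level at number 11 than at number 10 was found in each of the 6 DRG libraries, where paralogues 10 and 11 did not overlap (25.8 to 70.8 against 0.889 to 6.69 CPM).

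**Figure D2:**
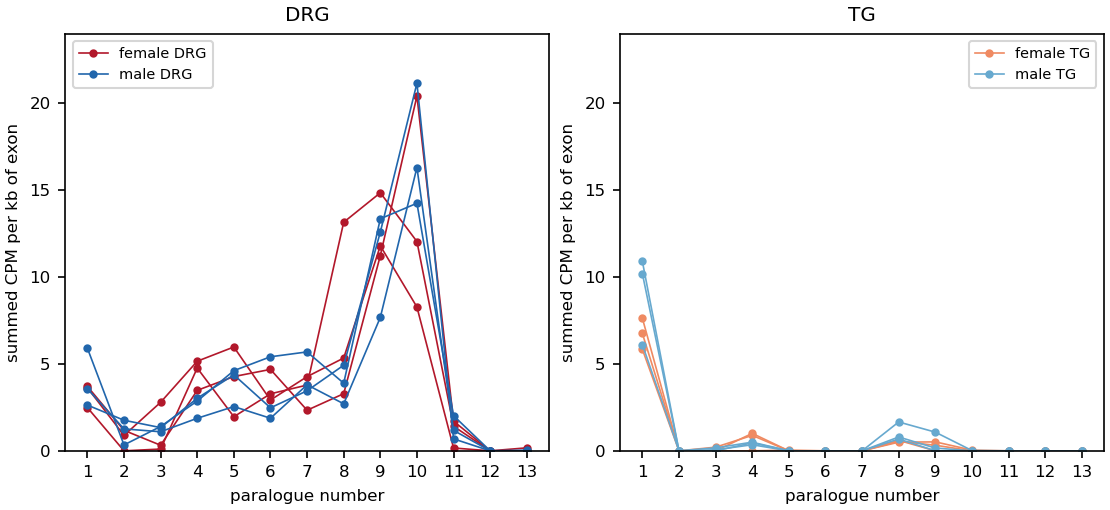
Summed level of the paralogues of each number, in CPM per kilobase of exon, with 1 line per library in DRG (left) and TG (right), coloured by sex. The DRG lines peak at number 9 or 10 and drop at 11, and the TG lines are high at number 1, with a small rise at 4, 8 and 9.

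The order of single genes in DRG was led by Hoxa10 at a median of 8.58 CPM per kilobase (4.73 to 13.1), followed by Hoxd10 at 5.08, Hoxa9 at 4.25, Hoxd8 at 3.38 and Hoxd1 at 3.1. Hoxb9, Hoxd9 and Hoxb7 came next at 3.06, 3.05 and 2.4. Each gene overlapped its neighbour in this order, so no step between adjacent ranks was larger than the spread between libraries. Within a paralogue number the leading cluster differed. By median level per kilobase Hoxd led numbers 1, 4, 8 and 11, Hoxb led 2, 3, 5 and 7, Hoxa led 9 and 10, and Hoxc led 6. By mean level Hoxb6 and Hoxb9 led their numbers instead. The mean of Hoxb9 rested on female DRG 1. Without that library it was 2.99 CPM per kilobase, against 4.75 for Hoxa9, and the means of Hoxa7 and Hoxb7 were 1.97 and 1.94.

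The comparison of DRG with TG asked which Hox genes differ between spinal and cranial ganglia. Genes were called where the fold change exceeded 2 and the edgeR adjusted p was under 0.05, and 0.769% of the 14829 genes tested were called, 0.29% higher in DRG and 0.479% higher in TG. Of the 39 Hox genes, 28 passed the filter on low counts, of which 17 had no TG read and so could pass only by their DRG level. That filter makes a difference likely among them, and their number is a description. Higher in DRG by the call were 11 genes: Hoxa7, Hoxa9, Hoxa10, Hoxb5, Hoxb7, Hoxb9, Hoxc5, Hoxc6, Hoxc10, Hoxd8 and Hoxd10. None was called higher in TG. DESeq2 called these 11 and 11 more as higher in DRG, and Hoxd1 as higher in TG. Over the genes tested the log2 fold change had a median of 0.01, and over the 28 Hox genes 7.20, a value that depends on the prior count because of the TG zeros. Female DRG 1 and female TG 3 did not carry the count, which was 14 without both, but without male DRG 2 it was 7.

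Of the 16 posterior genes, numbered 9 to 13, 7 were tested and 5 were called higher in DRG, beside 0.29% of all genes tested. These 5 had at most 1 TG read each and passed the filter by their DRG level, so the count is a description. Hoxa10 (ENSMUSG00000000938.9, mm9 chromosome 6, 52181196 to 52190853), a gene that keeps ribs off the lumbar vertebrae together with its paralogues, ran from 18.1 to 50.3 CPM in DRG with a median of 33. TG held 1 Hoxa10 read, in male TG 2. All DRG libraries lay above all TG libraries, and the pooled ratio was 2430 with a 95% counting interval of 436 to 96000 (edgeR adjusted p = 1.57e-08). Hoxd10 (ENSMUSG00000050368.3, chromosome 2, 74529147 to 74533163), known from lumbar motor neurons, ran from 3.11 to 24.6 CPM with a median of 13.5 in DRG and had no TG read. Over the pooled libraries its level was at least 331-fold higher in DRG, taking 3 counts over the TG group as the floor (adjusted p = 0.000103). Such bounds and the ratios that rest on 1 TG read do not order the genes among each other. Hoxc10, the third paralogue of this number and also a lumbar motor neuron gene, was lower, with 0.594, 2.95 and 6.26 CPM as lowest, median and highest in DRG. TG held 1 Hoxc10 read, a ratio of 222 (39.5 to 8830, adjusted p = 0.0263), and the call was lost in 9 of 20 alternatives.

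Hoxa9 (ENSMUSG00000038227.7, chromosome 6, 52173099 to 52181088), a trunk gene also known from blood progenitors, ran from 3.92 to 23.4 CPM in DRG with a median of 14.8 and had no TG read. It was at least 355-fold higher in DRG (edgeR adjusted p = 2.32e-05). Hoxb9 (ENSMUSG00000020875.8, chromosome 11, 96132771 to 96137909), a thoracic patterning gene, lay between 7.03 and 8.35 CPM in 5 DRG libraries and at 28.2 CPM in female DRG 1. Its single TG read gave a ratio of 746 (133 to 29500, adjusted p = 4.07e-05). Hoxc9, a determinant of thoracic motor neurons, had reads in 3 DRG libraries, at most 1.03 CPM, and did not pass the filter. Paralogue 9 was thus uneven across clusters, with levels per kilobase of 4.14 ± 2.01 for Hoxa9, 4.32 ± 3.25 for Hoxb9, 3.3 ± 1.65 for Hoxd9 and 0.161 ± 0.198 for Hoxc9 (SD, n = 6), where Hoxa9 lies above Hoxb9 by median. Of the paralogues numbered 11, known from the sacral axis, forearm and kidney, Hoxd11 alone passed the filter, with 0, 1.92 and 5.17 CPM in DRG, no TG read and an adjusted p of 0.0639, and DESeq2 called it. Hoxa11 and Hoxc11 reached at most 3.8 and 2.06 CPM in DRG and had no TG read. Hoxa11 shares 38.6% of its exon bases with the opposite-strand Hoxa11as.

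**Figure D3:**
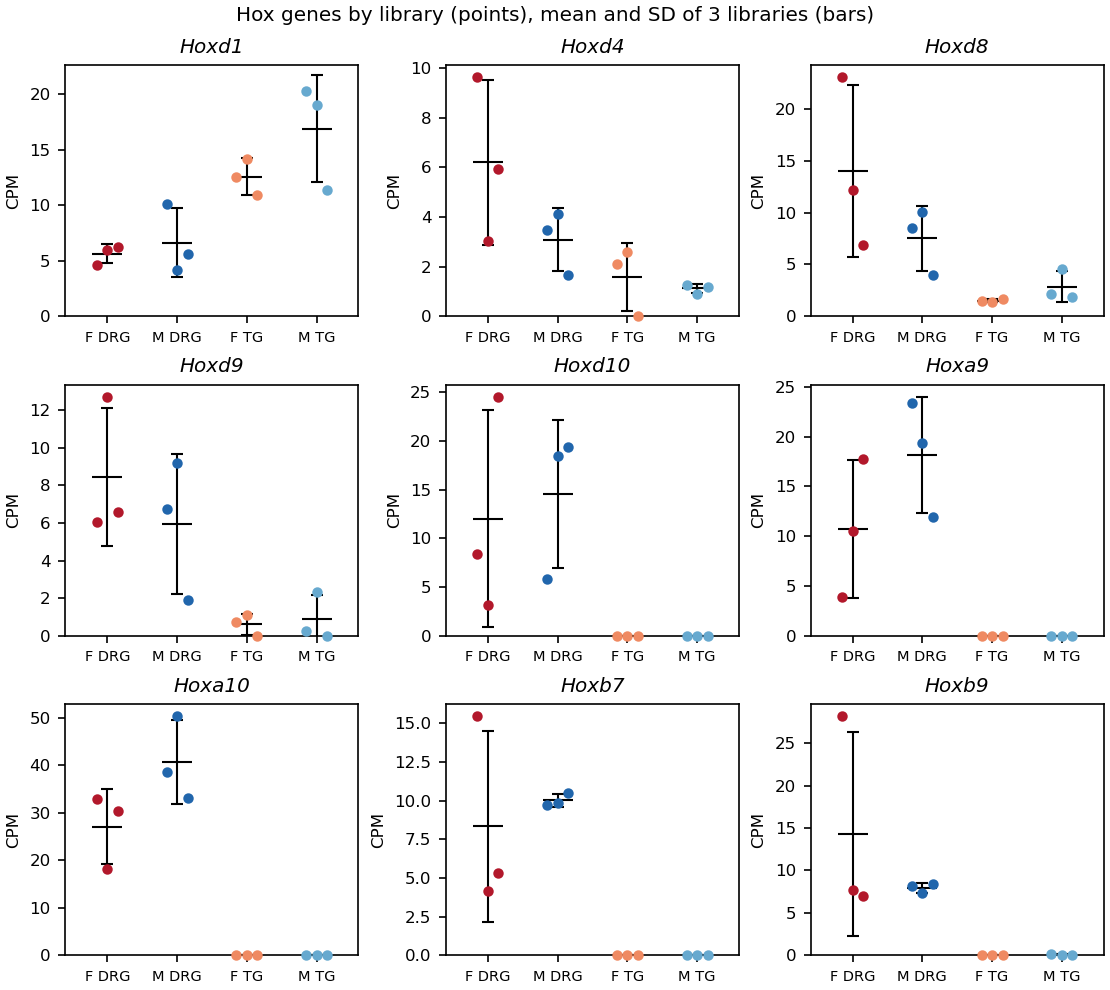
CPM of 9 Hox genes in each library (points) by group, with the mean and SD of 3 libraries (bars), F for female and M for male. Hoxd1 is higher in TG, Hoxd4, Hoxd8 and Hoxd9 have reads in both ganglia, and the 5 genes Hoxd10, Hoxa9, Hoxa10, Hoxb7 and Hoxb9 have at most 1 read in TG.

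Of the 13 central genes outside Hoxd, numbered 4 to 8, which pattern the cervical to thoracic levels, all were tested and none had more than 3 TG reads. Higher in DRG by the call were 5 of them, beside 0.29% of all genes tested. They too passed the filter by their DRG level, so the count is a description. Hoxb7 (ENSMUSG00000038721.7, chromosome 11, 96145571 to 96151650), a trunk gene also known from the kidney's collecting ducts, ran from 4.18 to 15.5 CPM with a median of 9.78 and no TG read. It was at least 214-fold higher in DRG (edgeR adjusted p = 0.000117). Hoxa7 had 0, 3.27 and 9.53 CPM as lowest, median and highest DRG value and was at least 117-fold higher (adjusted p = 0.0157). For Hoxb5 the DRG values were 0, 5.43 and 7.85 CPM, at least 111-fold higher (adjusted p = 0.0155). Hoxa7 and Hoxb5 were both at 0 in female DRG 1, so that their groups touched at 0.

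Hoxc6, expressed in forelimb-level motor neurons, had 0.841, 3.1 and 6.01 CPM in DRG and was at least 76.4-fold higher (edgeR adjusted p = 0.0161). Hoxc5, a cervical to brachial gene, had 0, 2.79 and 5.69 CPM and was at least 77.5-fold higher (adjusted p = 0.0395), a call lost in 10 of 21 alternatives. Hoxc8, which specifies brachial motor pools, had 0.28, 0.999 and 10.8 CPM in DRG, the lowest of these from 3 reads, with an adjusted p of 0.0589, and DESeq2 called it. Neither Hoxc5, Hoxc6 nor Hoxc8 had a TG read.

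The other central genes outside Hoxd were not called by edgeR, and DESeq2 called each of those that follow as higher in DRG. Hoxa5, needed for phrenic motor neurons and lung, had 0, 2.53 and 4 CPM in DRG and 1 TG read (edgeR adjusted p = 0.0616), and Hoxa6 had 0, 1.64 and 3.45 CPM (adjusted p = 0.122). Hoxb6 had 0, 1.26 and 8.13 CPM (adjusted p = 0.0619), and Hoxb8, whose loss is known to alter grooming and sensory responses in mice, had 0, 1.41 and 2.81 CPM (adjusted p = 0.131). Among paralogues numbered 4, genes of the cervical level, the DRG values were 0, 0.747 and 3.2 CPM for Hoxa4, 0, 1.77 and 5.42 CPM for Hoxb4 and 0, 1.59 and 1.88 CPM for Hoxc4, with adjusted p of 0.199, 0.221 and 0.135. Hoxa4, Hoxa6, Hoxb6, Hoxb8 and Hoxc4 had no TG read and Hoxb4 had 3, all in female TG 1. Each of these genes was at 0 in at least 1 DRG library and therefore overlapped TG.

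None of the anterior genes outside Hoxd, numbered 1 to 3, was called by edgeR, and DESeq2 called Hoxb2. Hoxb1, a hindbrain patterning gene, had a single read in the 12 libraries. Hoxb2 had 0, 2.78 and 4.41 CPM in DRG (edgeR adjusted p = 0.0605), and Hoxa2, which sets the identity of the second pharyngeal arch, reached at most 1.03 CPM, in 3 DRG libraries. Hoxb3 had 0, 2.71 and 6.31 CPM with 3 TG reads (adjusted p = 0.173) and Hoxa3, needed for thymus and parathyroid glands, had 0, 0.831 and 2.93 CPM (adjusted p = 0.258). Hoxa2, Hoxa3, Hoxb1 and Hoxb2 had no TG read, although genes of these numbers are the ones whose embryonic territory lies nearest to the trigeminal level.

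The Hoxd genes, which held nearly all TG reads, are given in the order of their annotated starts. Hoxd13 and Hoxd12 had no read, and Hoxd11 and Hoxd10, which start 11.1 and 22.8 kb from the start of Hoxd13, had reads only in DRG. Hoxd9, at 29.4 kb, was the first with TG reads. It (ENSMUSG00000043342.8, chromosome 2, 74535737 to 74538265) had 1.89, 6.67 and 12.7 CPM as lowest, median and highest DRG value and 0, 0.488 and 2.35 CPM in TG. The groups overlapped and the log2 fold change was 3.24 (SE 0.91, edgeR adjusted p = 0.126). Hoxd9 gained a call in 4 of 22 alternatives, with an adjusted p of 0.0042 in DESeq2 and 0.0347 in edgeR without the filter on low counts. Hoxd8 (ENSMUSG00000027102.4, chromosome 2, 74542672 to 74545990), at 36.3 kb, had 4.02, 9.27 and 23.2 CPM in DRG and 1.36, 1.76 and 4.56 CPM in TG. It was called higher in DRG, by 2.30 on the log2 scale (SE 0.46, adjusted p = 0.0175), although the highest TG library reached into the DRG range. The Hoxd8 call was lost in 7 of 22 alternatives.

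Hoxd3 and Hoxd4, which share most of the exon bases of Hoxd4, followed with starts at 43.6 and 53.7 kb. The annotated Hoxd3 spans Hoxd4 and ends beyond it, so the order of these starts is not the order of the genes in the cluster. Hoxd4, a cervical level gene with a retinoic acid response in the embryo, had 1.65, 3.79 and 9.63 CPM in DRG and 0, 1.23 and 2.57 CPM in TG. Its log2 fold change was 1.72 (SE 0.82, edgeR adjusted p = 0.565). Hoxd3 had 0.594, 1.17 and 1.86 CPM in DRG and 0, 0.173 and 0.879 CPM in TG, and its log2 fold change was 1.76 (SE 1.38, adjusted p = 0.863). Neither was called and both overlapped between ganglia.

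**Figure D4:**
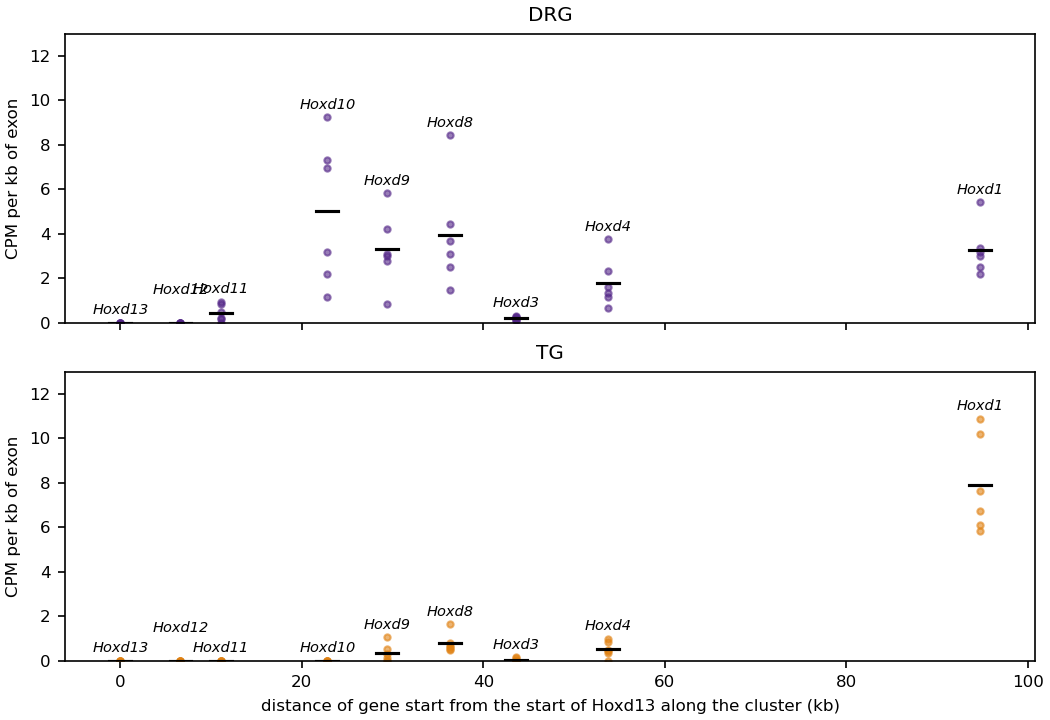
Level of the 9 Hoxd genes in CPM per kilobase of exon in each DRG (top) and TG (bottom) library (points; black line, mean), against the distance of the gene start from the start of Hoxd13 in kb. TG reads begin at Hoxd9 and reach 7.9 CPM per kilobase on average at Hoxd1, which lies 94.7 kb from Hoxd13.

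Hoxd1 (ENSMUSG00000042448.3, chromosome 2, 74601037 to 74603200), at the 3' end of the cluster, is known from developing mouse nociceptors, the pain-sensing neurons. Its level was 12.6, 14.2 and 10.9 CPM in female TG 1 to 3 and 20.3, 19.0 and 11.4 CPM in male TG 1 to 3. In DRG it was 4.64, 5.96 and 6.26 CPM in females 1 to 3 and 10.1, 4.13 and 5.59 CPM in males 1 to 3. Each TG library lay above each DRG library. Hoxd1 was the only one of the 39 genes for which this held, while 0.998% of all genes tested showed it. Of the 28 Hox genes tested 8 showed the opposite arrangement, beside 0.364% of all genes tested. Each of these 8 had at most 1 TG read and passed the filter by its DRG level. Reads in each DRG library nearly sufficed for that arrangement, so this number is a description. For Hoxd1 the log2 fold change of DRG over TG was -1.26 (SE 0.32) with an edgeR adjusted p of 0.0783, which missed the threshold. It was the single negative value among the 28 genes tested. Over 22 alternatives the log2 fold change stayed between -1.48 and -1.13 and the adjusted p ran from 0.0164 to 1, with 4 past the threshold.

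Whether non-neuronal cells moved with the ganglion was read from marker lists. Fibroblast markers, 6 of 6 tested, summed to 1027 to 2191 CPM in DRG and 617.9 to 1676 CPM in TG, and 0 of 6 were called, where 0.769% of all genes were. Their median log2 fold change of DRG over TG was 0.42, compared with 0.01 over all genes. Col3a1, a fibrillar collagen, had the largest, 1.23 (SE 0.36, edgeR unadjusted p = 0.00337, adjusted p = 0.161), with 177.4, 215.5 and 528.9 CPM as lowest, median and highest DRG value and 31.8, 102.9 and 258 CPM in TG. Col1a1 followed at 0.95 (SE 0.43, unadjusted p = 0.04, adjusted p = 0.531). Col1a2, Lum and Dcn were at 0.58, 0.25 and 0.23, and Pdgfra went the other way at -0.11. Myelinating Schwann cell markers summed to 1784 to 2750 and 1865 to 2781 CPM, endothelial markers to 181 to 590.9 and 285.9 to 603.2 CPM, pericyte and smooth muscle markers to 223.5 to 601 and 225.2 to 413.4 CPM, and macrophage markers to 60.1 to 212.4 and 48.3 to 281.9 CPM. Each of these ranges overlapped between the ganglia, and none of the markers was called. Skeletal muscle markers summed to at most 12.97 CPM in any library. The spinal cord and hindbrain markers Mnx1, Pax2, Lhx1 and Olig2 were at 0 in all 12 libraries, and the list reached 50.1 CPM in male TG 1 and at most 11.6 CPM elsewhere. The part of these cells in the Hox differences was not tested, and the labels give no batch, so a batch that followed the ganglion cannot be told apart from it.

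Proteins that act with Hox factors or keep their clusters on or off were then examined, as lists of whole families. The 9 TALE homeodomain genes (Pbx, Meis and Pknox), whose products bind DNA together with Hox proteins, were all tested and had a median log2 fold change of DRG over TG of -0.35, compared with 0.01 over all genes. Meis2 was called, and it was higher in TG. It had 5.601, 13.3 and 15.8 CPM as lowest, median and highest DRG value and 32.1, 39.9 and 43.6 CPM in TG, with no overlap, and DRG over TG came to -1.70 on the log2 scale (SE 0.26, edgeR adjusted p = 0.00141). The other 8 were not called, and this 1 of 9 stands beside the 0.479% of all genes called higher in TG. No member of the other families was called, which at 0.769% of all genes says little about them. These were 29 Polycomb group genes, which hold silent Hox clusters silent (median -0.05), 12 Trithorax group and H3K27 demethylase genes, which counteract them (median -0.06), and 18 tested of 23 regulators from the retinoic acid and caudal families (median -0.01). Cdx1, Cdx2, Cdx4 and Gbx2 of the last list had no read in any library.

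Of 14 genes flanking the clusters in the tables, 12 were tested, with a median log2 fold change of -0.06. None was called, and with 0.769% of all genes called that count does not set them apart. Evx1 and Evx2, homeobox genes at the posterior ends of the Hoxa and Hoxd clusters, had no read in any of the 12 libraries. Of 7 noncoding transcripts and microRNA genes inside the clusters, none passed the filter and none had a TG read. Mir10b and Mir615 had no read at all, and the other 5, Hoxa11as, Mir10a, Mir196a-1, Mir196a-2 and Mir196b, reached at most 1.96 CPM in a DRG library. Short single reads of total RNA measure precursors at these genes rather than mature microRNAs.

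The sexes were compared within each ganglion by criteria adapted from the study. They were a fold change above 2, an unadjusted p under 0.05 and a mean CPM above 1 in the higher sex. The study itself used DESeq and RPKM, which also divides by gene length, so its calls and these can differ. For a gene longer than a kilobase the CPM criterion is the laxer one. In DRG 4.97% of 13963 genes tested met the criteria used here, but 0 of the 28 Hox genes tested did. None of the 28 had an unadjusted p under 0.05 in edgeR, against 11.8% of all genes. DESeq2 gave 1, Hoxc8, higher in females. It had 10.8, 1.07 and 0.931 CPM in female DRG 1 to 3 and 0.28, 0.469 and 1.42 CPM in male DRG 1 to 3. The difference rested on female DRG 1, without which the female mean was 0.999 CPM in place of 4.27, against 0.722 in males. The log2 fold changes of female over male were positive for 12 genes and negative for 16, with a median of -0.24, against 0.02 over all genes. Their standard errors ran up to 2.04, and for the well-read Hoxd10 and Hoxb7 they were 0.68 and 0.60. Sex differences of the size of the fold criterion were thus not detectable for most Hox genes with 3 libraries per sex.

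The study lists Hoxb4 among the female-selective transcription genes of its neuron fractions, and it was followed here for that reason. Hoxb4 had 4.16, 5.42 and 1.95 CPM in female DRG 1 to 3 and 0, 1.59 and 0 CPM in male DRG 1 to 3. Each female library lay above each male library. The log2 fold change was 2.88 (SE 1.78, edgeR unadjusted p = 0.132, adjusted p = 0.55), so Hoxb4 did not meet the criteria in the main fit. The male values rested on 17 reads of 1 library. Without male DRG 2 the remaining male libraries were at 0, so that the fitted value of 8.40 depends on the prior count, and Hoxb4 then met the criteria (edgeR unadjusted p = 0.00994). In TG Hoxb4 had 3 reads, all in female TG 1.

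The sexes also did not overlap in DRG for Hoxa5, higher in females, and for Hoxa10 and Hoxb8, lower in females. With Hoxb4 these were 4 of 28 genes (14.3%), against 17.8% of all genes tested, a share near the background. Hoxa10 had 32.8, 18.1 and 30.2 CPM in female DRG 1 to 3 and 38.6, 50.3 and 33.1 CPM in male DRG 1 to 3, lower in females by a log2 value of -0.58 (SE 0.34, edgeR adjusted p = 0.532). The Hoxa share of the level per kilobase was 25.5%, 34.5% and 28.9% in the females and 38.9%, 38.3% and 37.6% in the males, given here without a test. The Hoxc share went the other way, with 11.4%, 12.2% and 15.1% in the females and 10.8%, 8.99% and 8.02% in the males. Hoxb and Hoxd shares overlapped between the sexes. Shares of a library are parts of a whole, so they do not move independently. Some markers of other cells moved with sex in DRG. By the criteria adapted from the study, 3 of 6 endothelial markers and 2 of 6 macrophage markers were higher in females. So were 2 of 6 pericyte and smooth muscle markers, 1 of 6 fibroblast markers and 1 of 8 sensory neuron markers. Of the satellite glia markers 0 of 6 met the criteria, and of the myelinating Schwann cell markers 0 of 5. None of the markers was higher in males, against 4.97% of all genes meeting the criteria. The sums in female and male DRG were 300.1 to 590.9 and 181 to 329.6 CPM for endothelial cells, 78.9 to 212.4 and 60.1 to 97.4 CPM for macrophages, and 269.5 to 601 and 223.5 to 283.4 CPM for pericytes and smooth muscle. For fibroblasts they were 1460 to 2191 and 1027 to 1612 CPM, and for sensory neurons 4376 to 7664 and 6435 to 8289 CPM. Female DRG 1 and 2 had the lowest neuron sums of the 6. The part of these cells in the Hox values was not tested.

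**Figure D5:**
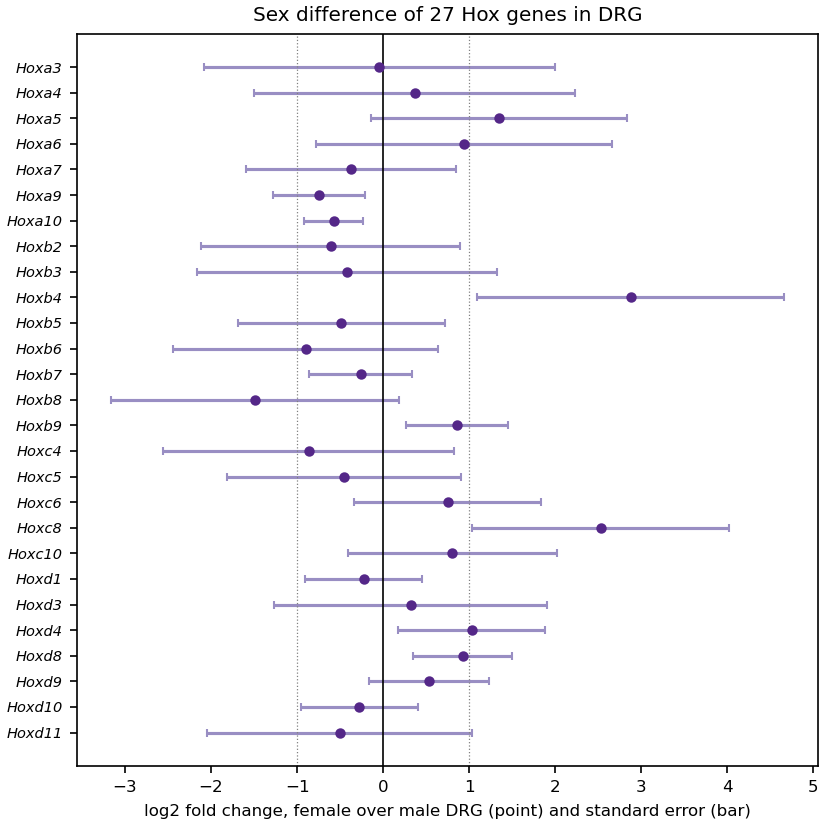
Log2 fold change of female over male DRG for 27 of the 28 Hox genes tested (points) with the standard error (bars). The dotted lines mark a fold of 2 in either direction. No gene had an unadjusted p under 0.05, and Hoxb4 at 2.88 and Hoxc8 at 2.53 have the largest values and wide errors, that of Hoxc8 resting on female DRG 1.

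In TG only Hoxd1, Hoxd4 and Hoxd8 had enough reads to be tested between the sexes, and 0 of 3 met the criteria, against 7.41% of 14009 genes. None of the 3 had an unadjusted p under 0.05 in edgeR, against 20.7% of all genes. Female over male on the log2 scale was -0.38 for Hoxd1 (SE 0.34, adjusted p = 0.539), 0.54 for Hoxd4 (SE 1.38, adjusted p = 0.855) and -0.88 for Hoxd8 (SE 0.89, adjusted p = 0.596). Hoxd8 lay between 1.36 and 1.66 CPM in females and between 1.87 and 4.56 CPM in males, without overlap, an arrangement seen in 23.7% of all genes, and in DRG the female mean was the higher one. The difference of the sex effects between ganglia was tested for the genes with TG reads. For Hoxd8 it was 1.84 on the log2 scale (SE 0.89, unadjusted p = 0.0549, edgeR adjusted p = 0.9998), and for Hoxd1 it was 0.20 (SE 0.64, adjusted p = 0.9998). Of the 5 Hox genes with more than 3 TG reads 0 passed an adjusted p of 0.05 in edgeR and 0 an unadjusted one, with 0% and 1.97% of all genes, and DESeq2 called 0. For genes at or near 0 in TG this difference could not be estimated. By the sex criteria, 3 of 6 fibroblast, 2 of 6 macrophage, 2 of 6 pericyte and smooth muscle and 2 of 5 myelinating Schwann cell markers were higher in female TG. Of satellite glia, endothelial and sensory neuron markers 0 met them. Higher in male TG were 1 of 2 tested skeletal muscle markers and the 1 tested spinal cord or hindbrain marker. The part of these cells in the TG values was not tested.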

How the data were processed

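RNA-seq read counts of 12 libraries were used, 3 in each of 4 groups taken from the sample titles. The authors removed ribosomal RNA, made dUTP stranded libraries, aligned short single reads to mm9 with TopHat2 at default settings and counted them per gene symbol with HTSeq. The deposited values are raw read counts, and versions, annotation and strand setting are not given in the sources used here. Lines that name no gene were left out: reads outside genes made up 37.6% to 50.4% of the reads in and outside genes. Multiply aligned reads were not counted.

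The 39 Hox genes were selected by symbol and all matched the GENCODE annotation of mm9. They and the gene lists were chosen with earlier results of these data known. Of the tested Hox genes each is named, apart from 1 that is not reported here, Hoxb4 because the study named it, and of the lists the called genes. CPM is scaled by TMM, and levels between genes are compared per kilobase of exon. DRG was compared with TG by edgeR 4.0.16 (R 4.3.3, quasi-likelihood F-test, filterByExpr, Benjamini-Hochberg over all genes tested) in a model of 4 group means, and the sexes within each ganglion in 6 libraries. DESeq2 1.42.0, other scalings, no filter, a GC and length correction, single sexes, a replicate block and leaving out libraries were alternatives. The scripts were tested on simulated data. A 3-count floor of 1 library or of a group of 6 bounded zeros. Same-numbered libraries did not deviate together throughout (correlation over 0.1 in 2 of 3 pairs at most), so the numbers were not taken to pair them. The highest values were those of DRG 3 with TG 3, 0.212 in females and 0.216 in males. The libraries may be technical replicates, and p-values then measure that spread alone.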

Additional observations from a re-analysis of the deposited data

Results flagged for a closer look

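In groups of 6 libraries, 4 of 33 tested combinations of Hox gene and ganglion had 1 library far from the others by Dixon's criterion. Chance gives about 1 in 20 for normally distributed values, which CPM from few reads are not. The 4 of 33 can therefore not be set against that rate. Hoxb9 in female DRG 1 was at 28.18 CPM, with the next library at 8.35. Hoxc8 in the same library was at 10.82 CPM, with the next at 1.42. Hoxd1 in male DRG 1 was at 10.09 CPM against 6.26 in the next, and this value was still below each TG library. Hoxd8 in male TG 2 was at 4.557 CPM against 2.19 in the next TG library, and this library is the one that reached into the DRG range. Female DRG 1 was also the shallowest library and had no read for 12 of the 28 tested Hox genes.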

How the results depend on the processing

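The 11 Hox genes called between DRG and TG became 23 with DESeq2 (22 higher in DRG and Hoxd1 higher in TG), 17 without the filter on low counts, 1 in females alone (Hoxa10) and 7 in males alone. Fits of a single sex used fewer libraries and tested fewer Hox genes, 13 in females alone and 19 in males alone, against 28. In females alone 5 of all genes were called. Of the 11 called genes, Hoxa7, Hoxb5, Hoxc5 and Hoxc10 were not tested in females alone, nor Hoxc6 and Hoxc10 in males alone. Leaving out 1 library gave 7 to 14, the lowest without male DRG 2. For each of these the cause was not tested beyond the numbers of genes and libraries. The gene lists had 1 call (Meis2), 0 in females alone, 1 to 2 without 1 library, with the 2 found without female TG 3, and 3 without both female DRG 1 and female TG 3, an alternative chosen after seeing the data. Of 607 gene-by-setting values of single Hox genes, 541 kept their side of the threshold, 33 lost a call, 33 gained one and 0 changed direction. Genes that failed the filter in a setting are not among these values, so a call that ended that way is not counted as lost. In the DRG sex comparison the count of 0 became 1 with DESeq2 (Hoxc8), 1 with the GC and length correction without female DRG 1 (Hoxb7, added after seeing the data), and 0 to 2 without 1 library: Hoxb3 without female DRG 2, Hoxa9 and Hoxd8 without female DRG 3 and Hoxb4 without male DRG 2. In TG and for the difference between ganglia it was 0 in each setting run, although the latter could not be estimated for the 17 tested genes with no TG read. With coding length in place of exon length, Hoxb held 27.25% and Hoxd 27.01% of the DRG level.

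With the replicate number as a block, 13 Hox genes were called between DRG and TG, 14 with the GC and length correction as well, and 13 with that correction alone. Hoxd1 was among them in each, with adjusted p of 0.031, 0.0256 and 0.0426, and Hoxd9 was among them with the block alone and with block and correction, at 0.00892 and 0.00652. The block gave 0 Hox genes between the sexes in DRG and in TG and 0 for the difference between ganglia. Same-numbered libraries correlated over genes at 0.0277 to 0.216 between DRG and TG of one sex, at 0.0317 to 0.168 between female and male DRG and at -0.0984 to 0.00983 between female and male TG. Between female and male DRG each library correlated best with its own number. Between the ganglia of one sex, DRG 3 and TG 3 correlated at 0.212 in females and 0.216 in males. Pairs of number 3 with another number were at -0.197 to -0.0635, and pairs among numbers 1 and 2 at 0.0277 to 0.117. These are hints from the data and not part of the design. Depth limits the genes below about 0.3 CPM, which includes most Hox genes in TG.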
